A study of Mus musculus with 36 samples.

Results

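The expression of 10 genes of transforming growth factor beta (TGF-beta) and activin signalling was followed in mouse liver. They were picked by name: the TGF-beta ligands Tgfb1, Tgfb2 and Tgfb3, the activin beta-chain genes Inhba, Inhbb, Inhbc and Inhbe, the antagonists Fst and Bambi, and the activin receptor gene Acvr2a. All 10 were found among the 21955 gene symbols of the count tables, and all 10 were among the 13436 genes that passed a filter on low counts. Total RNA had been sequenced from livers of the inbred strain C57BL/6JN, in young mice (4 months) and old mice (18 months), during regeneration. The time points are labelled before, 48, 72, 96, 120 and 240, with no unit, and the labels used here do not say how regeneration was started. The 12 combinations of age and time held 3 libraries apiece, given as biological replicates, which made 36. No genetic change or drug is named in the labels. Old is named there as the treated group, so young served as the reference.

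As background, ligands of this family are secreted dimers that bring type I and type II receptor kinases together, and the activated receptors phosphorylate Smad proteins that then enter the nucleus. TGF-beta 1 and activin A, a dimer of the beta A chain encoded by Inhba, are known to stop hepatocyte DNA synthesis, and the family has been studied as a brake that ends liver regeneration. Follistatin, the product of Fst, binds activins and keeps them from their receptors. Inhbc and Inhbe encode the beta C and beta E chains, which are made mainly by hepatocytes.

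Total counts ran from 2328233 to 6034446 per library (median 4439170), so that 3 counts, taken as the floor of detection, equalled 0.490 to 1.29 CPM, the depth-scaled counts used throughout. Hepatocyte markers were abundant in every library, with 7 of 7 detected and a summed level of 21614.5 to 38476 CPM. Markers of pancreatic acinar cells, another tissue, had a median sum of 1.90 CPM. Their highest sums were 183 CPM in young mice at 96 and 384 CPM in old mice at 120, against at most 8.45 CPM in the other groups. The part of that tissue in the results was not tested. The genes below are measured in whole liver, where fewer cells of a type and less RNA per cell cannot be told apart. In 12 libraries, 1 in each group, Y-linked transcripts were present, a split that the labels do not give. Xist, a transcript of female cells, held 0 to 2.92 CPM in these libraries and 2803.9 to 4104.2 CPM in the other 24. By these transcripts each group mixed male and female livers, with 1 male in each. The main fit has no term for sex. Between the 12 libraries with Y-linked transcripts and the other 24, 8.4% of all genes tested differed by edgeR's quasi-likelihood test. Of the 10 genes, 0 did (lowest adjusted p 0.372, Inhbc, and 0 at an unadjusted p under 0.05). Replicate 2 of the old mice at 48 stood apart. Of 13436 genes, 90 were over 4-fold above and 233 over 4-fold below both other libraries of its group, and the group's biological coefficient of variation was 40.7% with it and 27.7% without it. Its Kupffer cell and macrophage markers summed to 134 CPM against 423 and 653 CPM in the others, with 8 of 8 markers detected in each. Its cholangiocyte markers summed to 244 CPM against 82.5 and 80.4 CPM, with 7, 7 and 6 of 7 detected. Among those markers Spp1 reached 261 CPM over the 36 libraries and no other passed 47.5 CPM, so the highest sums rest mostly on Spp1. Neutrophil and platelet markers of replicate 2 were the highest of all 36 libraries (39.3 and 30.6 CPM, 5 of 5 detected each), against at most 10.7 and 12.9 CPM in the others of its group. The part of these cells in the results was not tested. Calls and most changes at 48 in old mice are therefore also given without this library. The counts of genes whose groups do not overlap include it. Old before replicate 1, 1 of the libraries with Y-linked transcripts, had the most genes detected (20255, against a median of 16078). The biological coefficient of variation of old before was 25.1% with that library and 14.4% without it. Changes from before in old mice include it unless stated. In every group except old 48, the coefficient was lower without the library with Y-linked transcripts. It went from 20.0% to 10.2% in young 120 and from 24.4% to 12.8% in old 240. In old 48 it went from 40.7% to 46.9%.

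The genes differed widely in level. Per kilobase of exon, Inhbc was highest with a median of 54.2 CPM, followed by Inhbe (22.8 CPM), Acvr2a (12.7 CPM), Inhba (4.22 CPM), Inhbb (3.30 CPM), Tgfb1 (2.76 CPM), Fst (1.44 CPM), Tgfb3 (0.923 CPM), Bambi (0.655 CPM) and Tgfb2 (0.314 CPM). The value of Inhbe depends on the gene model. GENCODE vM21 gives it 5319 bases of exon, whereas the RefSeq gene spans 2447 bases, and over that length its median would be 49.5 CPM per kilobase. Within each library Inhbc made up 29.0% to 77.2% of the summed per-kilobase level of the 4 beta-chain genes (median 65.3%), and Tgfb1 made up 50.1% to 84.8% of that of the 3 TGF-beta ligands (median 67.1%). Tgfb2 reached 10 counts in only 12 of 36 libraries, Tgfb3 in 26 and Bambi in 29, so small changes of these were not detectable at this depth.

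**Figure D1:**
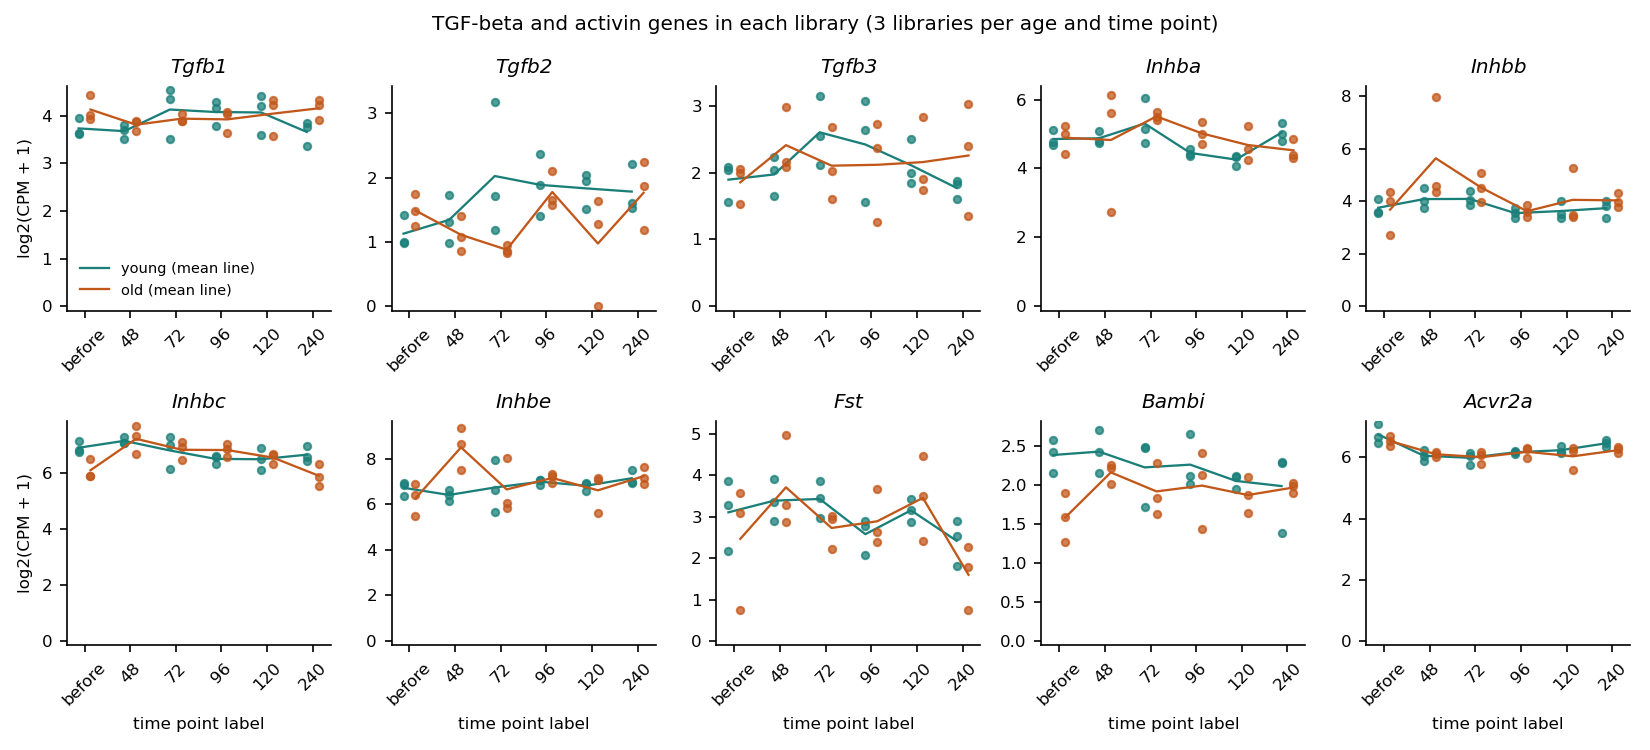
Level of each of the 10 genes in the 36 libraries, as log2(CPM + 1) against the labelled time point, with young and old libraries as points and group means as lines. Inhbe and Inhbb reach their highest values in old libraries at 48 (655 and 248 CPM), and Acvr2a is highest before in both ages.

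Inhbc and Inhbe lie side by side on the minus strand of chromosome 10 in GRCm38. GENCODE places Inhbe at chr10:127348857-127354411 and Inhbc at chr10:127356322-127370431, with 1910 bases and 0 genes between them. Sequences upstream of the start were available from RefSeq (GRCm38.p6) for 7 of the 10 genes. The 250 bases before the start are shown for the beta-chain genes Inhbc, Inhbb and Inhba and for Acvr2a, the gene that fell in both ages. At 48 in old mice edgeR called Inhbc higher with and without replicate 2, Inhbb only with it and Inhba only without it. The windows are all read 5′ to 3′ with the TATA box, found in that of Inhba, in capitals. They lie at chr10:127370549-127370798 (minus strand, Inhbc), chr1:119422249-119422498 (minus strand, Inhbb), chr13:16011601-16011850 (plus strand, Inhba) and chr2:48813859-48814108 (plus strand, Acvr2a).
Inhbc: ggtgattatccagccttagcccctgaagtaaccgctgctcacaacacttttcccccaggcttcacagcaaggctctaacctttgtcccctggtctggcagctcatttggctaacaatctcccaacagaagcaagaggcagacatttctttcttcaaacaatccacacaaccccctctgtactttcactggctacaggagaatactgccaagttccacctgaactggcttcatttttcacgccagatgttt
Inhbb: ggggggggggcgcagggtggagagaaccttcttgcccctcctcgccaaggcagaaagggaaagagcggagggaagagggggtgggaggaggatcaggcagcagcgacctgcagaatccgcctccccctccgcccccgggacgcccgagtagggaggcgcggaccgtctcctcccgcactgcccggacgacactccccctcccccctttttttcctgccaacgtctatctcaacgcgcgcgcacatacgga
Inhba: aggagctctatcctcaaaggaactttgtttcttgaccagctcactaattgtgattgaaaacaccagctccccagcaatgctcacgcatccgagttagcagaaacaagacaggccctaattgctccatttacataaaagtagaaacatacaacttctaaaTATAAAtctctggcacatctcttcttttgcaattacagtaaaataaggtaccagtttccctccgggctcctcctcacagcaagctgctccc
Acvr2a: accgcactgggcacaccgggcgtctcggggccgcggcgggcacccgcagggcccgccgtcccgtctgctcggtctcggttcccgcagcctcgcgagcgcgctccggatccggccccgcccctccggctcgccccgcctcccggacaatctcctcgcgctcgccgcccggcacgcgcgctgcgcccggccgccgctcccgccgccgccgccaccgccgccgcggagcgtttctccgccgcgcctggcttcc
For Inhbe, RefSeq and GENCODE disagree on the start, and the RefSeq upstream window lies wholly in what GENCODE annotates as the first exon and 5′ untranslated region. Only the 29 bases around a match to a composite C/EBP-ATF element are therefore shown, at chr10:127352012-127352040 on the minus strand, with the element in capitals.
Inhbe element: catcctctttCTTGCATCAtgcatgtcca

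Known motifs were searched on both strands of these windows. The C/EBP-ATF element, TGATGNAAN, was found at 1 place in the Inhbe window, on the opposite strand with its first printed base 182 bases before the RefSeq start, and in 0 of the other 6 windows. It was present in 3.44% of 32851 promoter windows of the same length. The TATA box TATAAA lay 91 bases before the start of Inhba and 31 before that of Tgfb2 (12.4% of all windows). The short Smad box CAGAC occurred at 2 places each in the Inhbc, Inhbe and Tgfb2 windows and at 1 in that of Acvr2a (42.2% of all windows). The C/EBP motif TTGCNNAA was found at 1 place, in Inhba (9.56% of all windows), and can overlap the composite element. The motifs CRE (TGACGTCA, 1.55% of all windows) and AP-1 (TGANTCA, 6.75%) had 0 matches in the 7 windows. The window of Acvr2a held 49 CpG dinucleotides and was 82.0% G or C, that of Inhbb held 21 at 68.0%, and those of Inhbc and Inhba held 2 and 3 at 48.8% and 43.2%. These are matches of letters only, and no binding was measured.

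Within an age, the later time points were each set against before, to follow the genes through regeneration. All changes are log2 fold changes from edgeR's quasi-likelihood test with Benjamini-Hochberg adjustment over 13436 genes, and a gene is called at an adjusted p under 0.05. In young mice 1 of 10 genes was called at 48 and 1 at 72, each time Acvr2a, which was lower; 21.9% and 17.4% of all genes tested were called there, and 9.79% and 8.21% as lower. At 96, 120 and 240, 0 were called, where the background was 1.4%, 0.581% and 0.246% (2, 1 and 0 at an unadjusted p under 0.05). DESeq2 and limma voom each called 1 gene at 96, Acvr2a, and 0 at 120 and 240. In old mice 4 of 10 were called at 48, Inhbb, Inhbc and Inhbe higher and Acvr2a lower, beside 24.1% of all genes. The directions separately held 12.1% (higher) and 12% (lower) of all genes. Without old 48 replicate 2, Inhba, Inhbc and Inhbe were called higher at 48 (edgeR adjusted p 0.0196, 0.000858 and 0.00886), beside 16.8% of all genes. Inhbb and Acvr2a were then not called (0.289 and 0.167). With all libraries, 1 was called at 72 (Acvr2a, lower), beside 12.4% of all genes and 5.81% lower. At 96, 120 and 240, 0 were called, beside 6.82%, 3.87% and 0.156% (2, 1 and 0 at an unadjusted p under 0.05). There DESeq2 called 0, and limma voom called 2 at 96 (Inhbc higher, Acvr2a lower) and 0 at 120 and 240. At 48 in old mice 7 of 10 genes had groups that did not overlap, against 31.4% of all genes tested, and at 48 in young mice 1 of 10 did, against 41.4%. Over all 5 later time points in a single test, 1 of 10 changed in young mice (Acvr2a, adjusted p 0.00322; 21.4% of all genes) and 3 in old mice (Inhbb, Inhbc and Inhbe; 20.5%). Without old 48 replicate 2, edgeR called Inhba in that test in old mice (adjusted p 0.00547) and did not call Inhbb (0.330).

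**Figure D2:**
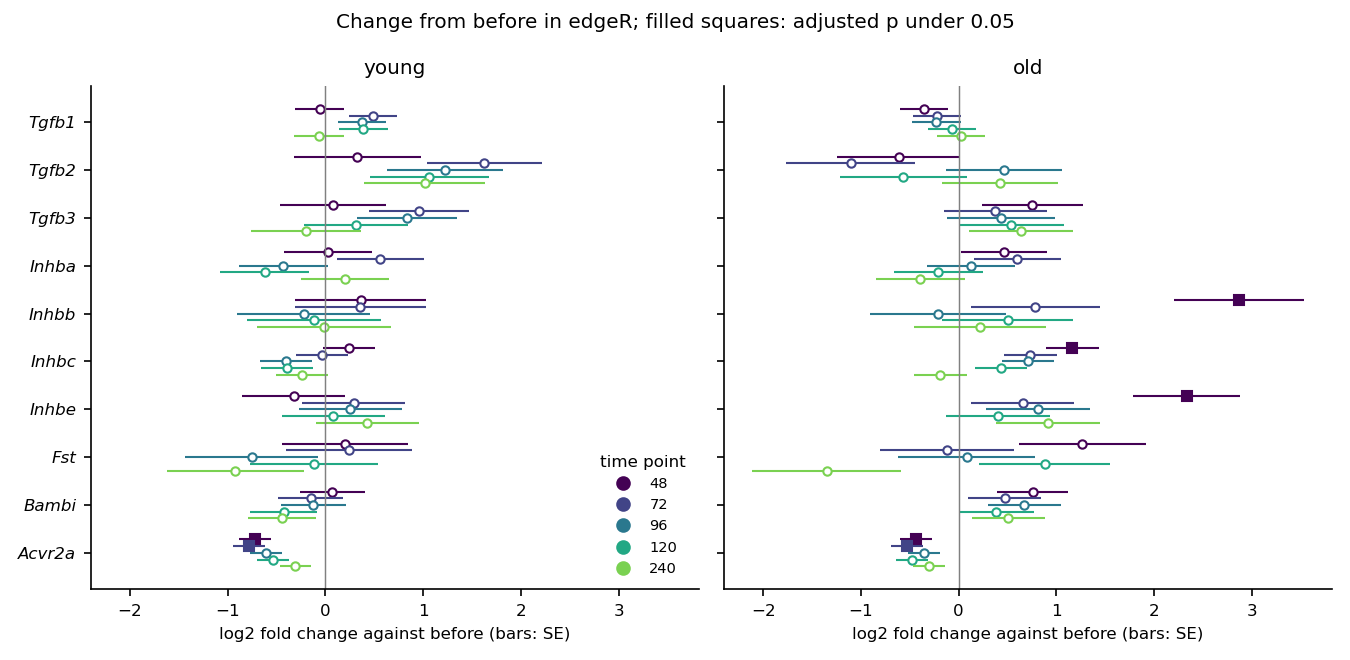
Log2 fold change of each gene at each later time point against before in young mice (left) and old mice (right), with standard errors as horizontal bars and filled squares for genes called at an adjusted p under 0.05. Inhbb, Inhbe and Inhbc lie at 2.87, 2.33 and 1.16 at 48 in old mice, and Acvr2a lies below 0 at every time point in both ages.

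Among the TGF-beta ligands, 0 of 3 genes were called in any comparison by edgeR (at an unadjusted p under 0.05, Tgfb1 passed 1, Tgfb2 5 and Tgfb3 0 of 25 tests). Tgfb1 (chr7:25687002-25705077, plus strand) encodes the most widely expressed form, which is stored in the matrix in a latent complex. It held 11.4, 11.2 and 14.5 CPM in young livers before and 19.3, 22.1 and 10.4 CPM at 72, a log2 change of 0.49 ± 0.25 (SE; edgeR adjusted p 0.183). At 72, 2 young libraries lie above those before and 1 lies below. Without that low library, young 72 replicate 3, the change was 0.76 (edgeR adjusted p 0.0307). It is the library of its group that holds Y-linked transcripts. In old livers Tgfb1 held 15.3, 20.8 and 14.1 CPM before and 13.6, 11.7 and 13.9 CPM at 48. The old libraries at 48 are all lower than those before, by 0.36 ± 0.25 on the log2 scale (edgeR adjusted p 0.300; -0.26 and 0.561 without replicate 2).

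Tgfb2 (chr1:186622792-186705989, minus strand), which encodes another ligand of the same receptors, held 1.66, 0.995 and 0.969 CPM in young livers before and 2.29, 8.02 and 1.27 CPM at 72. The highest value, 33 counts, came from replicate 2. That library had the highest cholangiocyte marker sum of all 36 (324 CPM, 7 of 7 detected, against 63.5 to 87.2 CPM before). So high a sum rests mostly on Spp1, since no other of these markers passed 47.5 CPM in any library. The part of those cells in the value of Tgfb2 was not tested. Its change at 72 was 1.62 ± 0.59 (edgeR adjusted p 0.0551), and it was past the threshold with DESeq2 (1.66, adjusted p 0.0466), with total-count scaling (1.84, edgeR adjusted p 0.0299) and without young 72 replicate 3 (2.05, edgeR adjusted p 0.0153), old 48 replicate 2 (1.65, 0.0470) or old 120 replicate 1 (1.63, 0.0339). In old livers at 72 it held 0.821, 0.936 and 0.766 CPM, all below the young libraries at that time, with a difference of -2.16 ± 0.61 (edgeR adjusted p 0.395; 0% of all genes were called in that comparison). These old values stand on 4 counts each. In old 120 replicate 1 the count was 0, which allows up to 3 counts.

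Tgfb3 (chr12:86056745-86079041, minus strand), the gene of the remaining TGF-beta ligand, held 3.12, 3.23 and 1.94 CPM in young livers before and 7.84, 4.86 and 3.31 CPM at 72. The groups do not overlap, and the change was 0.96 ± 0.51 (edgeR adjusted p 0.204). In old livers it held 1.88, 3.13 and 2.97 CPM before and 6.89, 3.24 and 3.48 CPM at 48, again without overlap (0.76 ± 0.52, edgeR adjusted p 0.296; 0.97 and 0.237 without replicate 2). On the opposite strand, 257 bases or 7.6% of its exons are shared with Gm48008, and the use of strand in counting is not given in the sources used here.

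The activin A gene Inhba (chr13:16011851-16031621, plus strand) was called in 0 of 25 tests by edgeR (0 at an unadjusted p under 0.05). Limma voom called its change over all times in both ages (adjusted p 0.0299 in young, 0.0210 in old), as did edgeR without old 48 replicate 2 (0.0131 and 0.00547). Young livers held 26.0, 24.6 and 33.9 CPM before, 33.2, 25.6 and 26.9 CPM at 48 and 34.2, 64.7 and 25.7 CPM at 72. At 96 they held 19.4, 22.8 and 20.5 CPM and at 120 19.3, 19.6 and 15.7 CPM, below each library before, with changes of -0.43 ± 0.45 and -0.62 ± 0.46 (edgeR adjusted p 0.712 and 0.636). Old livers held 36.9, 31.1 and 20.5 CPM before and 68.7, 5.67 and 48.1 CPM at 48. Replicate 2 thus had the lowest Inhba level of all 36 libraries beside the highest, in replicate 1. With all 3 the change was 0.47 ± 0.44 (edgeR adjusted p 0.465). Without replicate 2 it was 1.01 (edgeR adjusted p 0.0196), and the difference from young livers at 48 was 1.01 (adjusted p 0.0422). At 72, old livers held 49.1, 44.0 and 41.2 CPM, all above those before (0.60 ± 0.44, edgeR adjusted p 0.403).

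Inhbb (chr1:119415465-119422248, minus strand) encodes the beta B chain of activin B, a ligand known to raise hepcidin in hepatocytes. Young livers held 10.8, 15.9 and 11.1 CPM before and 12.4, 15.0 and 21.4 CPM at 48. Old livers held 15.0, 19.2 and 5.48 CPM before and 23.1, 248 and 19.2 CPM at 48. Nearly all of the rise lay in replicate 2, where Inhbb ranked 11 of 13436 genes by its excess over the other libraries of the group, behind Plin4 and Cd14 among others. With all libraries Inhbb rose by 2.87 ± 0.67 (edgeR adjusted p 0.00310) and exceeded young livers at 48 by 2.58 ± 0.65 (adjusted p 0.0103). Without replicate 2 the values were 0.70 (edgeR adjusted p 0.289) and 0.37 (adjusted p 0.752). Limma voom with weights for sample quality, which can give an outlying library less weight, gave 1.01 (adjusted p 0.123) and 0.86 (adjusted p 0.343), and a fit of only the groups compared gave 2.89 and 2.60 (adjusted p 0.175 and 0.314). The difference from young was also lost without young 48 replicate 1 (2.40, edgeR adjusted p 0.0654). At 72, old livers held 21.5, 32.8 and 14.5 CPM (0.79 ± 0.66, edgeR adjusted p 0.471), and at 120 replicate 1 held 37.8 CPM beside 10.02 and 9.62 CPM.

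**Figure D3:**
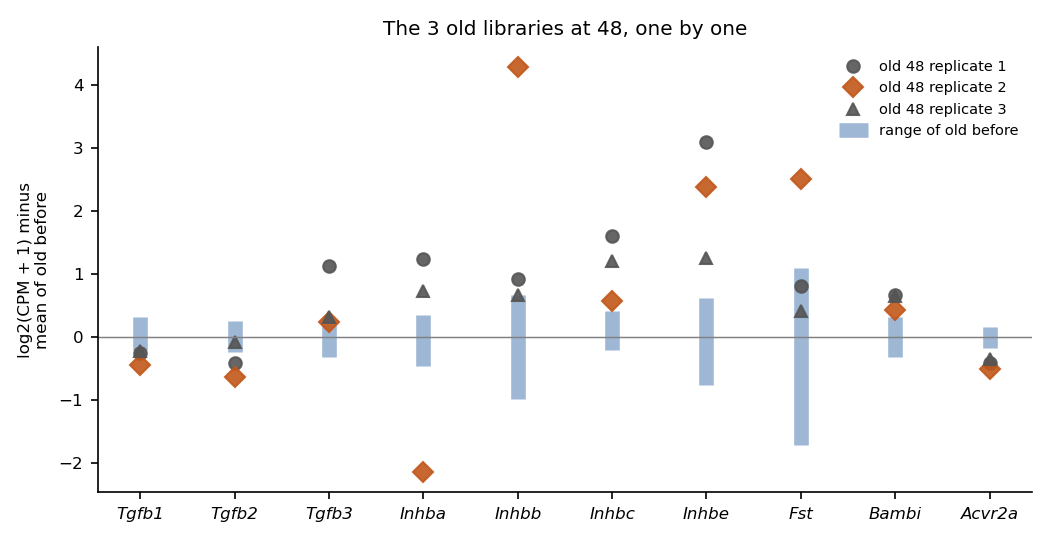
Level of each gene in the 3 old libraries at 48, as log2(CPM + 1) minus the mean of the 3 old libraries before, with 1 symbol per replicate and bars for the range of the old libraries before. Replicate 2 is the highest of the 3 for Inhbb (248 CPM) and Fst (30.4 CPM) and the lowest for Inhba (5.67 CPM), whereas Inhbe and Inhbc lie above 0 in all 3.

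The hepatocyte beta chains rose in old livers at 48 in each library. Inhbe held 84.1, 117 and 43.8 CPM in old livers before and 655, 396 and 182 CPM at 48, a rise of 2.33 ± 0.55 or 5.04-fold (edgeR adjusted p 0.00344). The groups do not overlap, and replicates 1 and 2 at 48 held the highest Inhbe levels of all 36 libraries. In young livers the values were 82.4, 123 and 114 CPM before and 70.6, 85.1 and 99.3 CPM at 48, which overlap (-0.33 ± 0.53, edgeR adjusted p 0.710). Old livers at 48 exceeded young livers at 48 by 2.27 ± 0.55 (edgeR adjusted p 0.00722), with all 3 old libraries above all 3 young ones. The test of the 2 changes against each other gave 2.66 ± 0.76 (edgeR adjusted p 0.0684; 1.38% of all genes were called by that test). DESeq2 called it (2.66, adjusted p 0.0111), as did edgeR without young 72 replicate 3 (2.68, adjusted p 0.0451), old 48 replicate 3 (3.01, 0.0176) or old 72 replicate 1 (2.66, 0.0369). Without replicate 2 the rise in old livers was 2.38 (edgeR adjusted p 0.00886) and the difference from young 2.29 (adjusted p 0.0263). A fit of only the groups compared gave 2.34 for the rise (edgeR adjusted p 0.0716) and 2.297 for the difference (0.0804).

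At later times Inhbe was not called. Old livers held 262, 66.2 and 56.9 CPM at 72, so that replicate 1 stood alone above the range before. At 96 they held 121, 159 and 149 CPM and at 240 200.2, 143 and 117 CPM, in both cases above all libraries before, by 0.81 ± 0.53 and 0.91 ± 0.53 (edgeR adjusted p 0.389 and 0.763). Young livers at 72 held 49.5, 98.2 and 243 CPM, again with 1 library, replicate 3, far above the others. Without the libraries that hold Y-linked transcripts, which include replicate 1 at 48, the rise in old livers was 1.86 (edgeR adjusted p 0.0458), and the difference from young at 48 was 1.88 (adjusted p 0.0750). The test over all times in old livers (edgeR adjusted p 0.0136) was lost without old 48 replicate 1 (adjusted p 0.171).

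Inhbc held 91.1, 58.8 and 58.9 CPM in old livers before and 208, 102 and 159 CPM at 48, a rise of 1.16 ± 0.27 or 2.24-fold (edgeR adjusted p 0.00258), and 1.42 without replicate 2 (adjusted p 0.000858). It kept its call when any 1 of the 36 libraries was left out, and lost it in a fit of only the groups compared (1.18, adjusted p 0.0860). Later it held 139, 121 and 87.9 CPM at 72 and 133, 94.5 and 115 CPM at 96, with changes of 0.73 ± 0.27 and 0.71 ± 0.27 (edgeR adjusted p 0.0679 and 0.105). The change at 72 passed the threshold with total-count scaling (0.85, adjusted p 0.0246), with limma voom (0.90, 0.00710), with a term for Y-linked transcripts (0.76, 0.0458) and without the libraries that hold them (1.16, 0.0143). It also passed without young 72 replicate 1, old before replicate 1 or old 48 replicate 2 (edgeR adjusted p 0.0407, 0.0238 and 0.0345). The change at 96 passed with limma voom (0.78, adjusted p 0.0150) and without old before replicate 1 (0.98, edgeR adjusted p 0.0388). At 240 it held 79.6, 45.3 and 58.0 CPM, within 0.19 ± 0.27 below the level before (edgeR adjusted p 0.941). Young livers began higher, at 108, 140.0 and 114 CPM, above all old libraries before, a difference of -0.79 ± 0.27 for old against young (edgeR adjusted p 0.466; 0.0595% of all genes were called; limma voom gave -0.97 with adjusted p 0.0209). At 48 they held 134, 136 and 157 CPM, and old against young differed there by 0.13 ± 0.26 (edgeR adjusted p 0.812). Inhbc shares 268 bases, 14.4% of its exons, with the opposite-strand gene Gm47200, which has no row of its own.

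Since the 2 genes are neighbours, their counts were set against each other in each library. The ratio of Inhbe to Inhbc counts was 0.764, 0.881 and 1.00 in young livers before and 0.525, 0.625 and 0.631 at 48, without overlap. In old livers it was 0.923, 1.98 and 0.744 before and 3.15, 3.90 and 1.15 at 48, which overlap. The ratio was also high in old livers at 240, at 2.51, 3.17 and 2.02, above every old library before, where Inhbc had its lowest group mean (61.0 CPM). The exact 95% binomial interval of the Inhbe share of both counts in old 48 replicate 2, which had the highest ratio, was 77.9% to 81.2%. In young before replicate 3 it was 46.8% to 53.2%. In old 48 replicates 1 and 3 it was 74.5% to 77.3% and 51.0% to 55.8%. In old before replicates 1 to 3 it was 44.4% to 51.6%, 63.1% to 69.8% and 38.0% to 47.4%. Such intervals cover counting error only. These ratios were not tested.

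**Figure D4:**
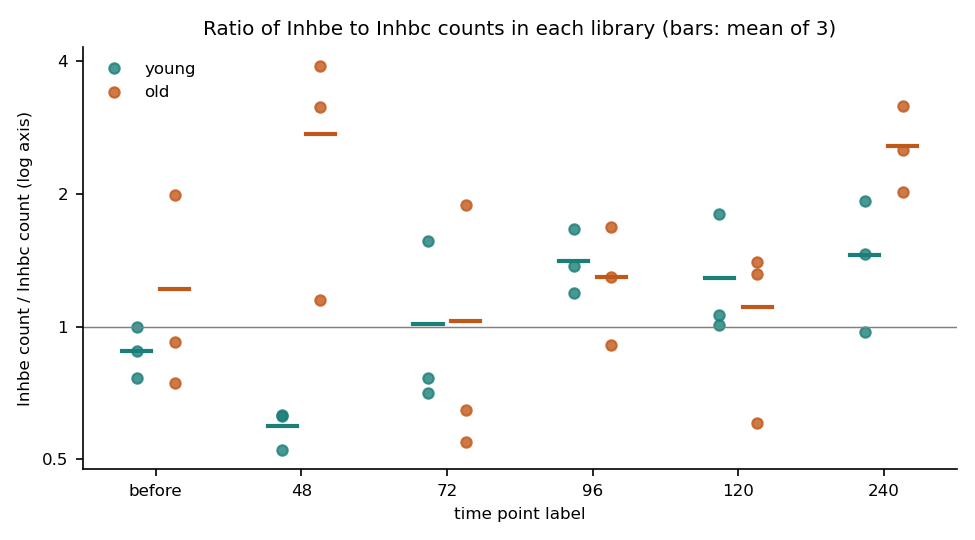
Ratio of Inhbe to Inhbc counts in each of the 36 libraries on a log axis, by labelled time point, with young and old libraries in different colours and short lines for the group means. The 3 young libraries at 48 lie between 0.525 and 0.631, and the 3 old libraries at 240 lie between 2.02 and 3.17.

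Fst (chr13:114452290-114458951, minus strand), the activin antagonist, was called in 0 of 25 tests by edgeR (1 at an unadjusted p under 0.05). Its change over all times in old livers had an adjusted p of 0.0806 by edgeR and 0.0186 by DESeq2. Old livers held 10.8, 0.670 and 7.53 CPM before, where replicate 2 stood on 3 counts, and 8.67, 30.4 and 6.34 CPM at 48. The high value came again from replicate 2, the highest Fst level of the series. The change was 1.26 ± 0.65 (edgeR adjusted p 0.157) with it and 0.28 (adjusted p 0.819) without it. At 240 the old values were 2.42, 0.681 and 3.82 CPM, a change of -1.35 ± 0.76 (edgeR adjusted p 0.758), with 2 counts in the lowest library. Young livers held 8.74, 3.48 and 13.6 CPM before, and later young libraries ranged from 2.50 CPM (at 240) to 14.04 CPM (at 48).

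Bambi encodes a pseudoreceptor that resembles type I receptors but lacks a kinase domain. It held 4.99, 3.48 and 4.36 CPM in young livers before and 1.41, 2.01 and 2.74 CPM in old livers before, on 6 to 24 counts. All old libraries were below all young ones, by 1.05 ± 0.36 on the log2 scale (edgeR adjusted p 0.478). Averaged over the 6 time points old livers differed by -0.41 ± 0.14 (edgeR adjusted p 0.0904; 0.0458 without young 240 replicate 3). In old livers at 48 it held 3.78, 3.04 and 3.68 CPM, above all old libraries before (0.76 ± 0.36, edgeR adjusted p 0.126; 0.88 and 0.130 without replicate 2).

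Acvr2a (chr2:48814109-48903269, plus strand) encodes a type II receptor that binds activins, and it was the only one of the 10 genes that edgeR called in young livers. They held 102, 88.8 and 134 CPM before, 65.2, 74.2 and 58.1 CPM at 48 and 53.5, 65.6 and 69.7 CPM at 72. No library at 48 or 72 reached the lowest one before. Acvr2a fell by 0.72 ± 0.16 at 48 (edgeR adjusted p 0.00183) and by 0.78 ± 0.16 at 72 (adjusted p 0.00175), that is to 0.609 and 0.581 of its level before. Summed sinusoidal endothelial markers were also lower in these libraries without overlap, at 613 to 694 CPM before, 378 to 511 CPM at 48 and 419 to 475 CPM at 72 (8 of 8 detected), as were stellate cell markers. Their part in the fall of Acvr2a was not tested. At 96 it held 68.9, 71.1 and 73.0 CPM (-0.61 ± 0.16, edgeR adjusted p 0.0545), at 120 70.1, 71.1 and 82.8 CPM (-0.54 ± 0.16, adjusted p 0.141), and at 240 94.9, 79.6 and 88.0 CPM (-0.31 ± 0.16, adjusted p 1). The last group overlaps the libraries before.

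In old livers Acvr2a held 81.2, 92.5 and 103 CPM before and 68.2, 64.0 and 71.6 CPM at 48, followed by 66.9, 70.9 and 53.8 CPM at 72. Every later old library lay below the lowest one before. The fall was 0.44 ± 0.16 at 48 (edgeR adjusted p 0.0491) and 0.53 ± 0.16 at 72 (adjusted p 0.0327). The call at 48 lay at the threshold and was lost when any of 31 of the 36 libraries was left out, among them old 48 replicate 2 (-0.37, edgeR adjusted p 0.167). It was also lost with median-of-ratios scaling, both other filters, the replicate block and limma voom. The same held without the libraries with Y-linked transcripts and in a fit of only the groups compared (adjusted p by edgeR or limma voom 0.0513 to 0.170). The call at 72 was lost without old before replicate 2 or 3, or without old 72 replicate 1 or 3. No filter on low counts (edgeR adjusted p 0.0871) and a fit of only the groups compared (0.0837) also ended it. So did leaving out the libraries that hold Y-linked transcripts (-0.49, edgeR adjusted p 0.175). Total-count scaling ended it too, and moved the median of all genes at 72 to 0.11 in old and 0.21 in young mice. The young changes were called under each of the 3 scalings tried, and that at 48 was lost without the libraries that hold Y-linked transcripts (-0.66, edgeR adjusted p 0.0564). The change in old minus that in young livers was 0.28 ± 0.23 at 48 and 0.25 ± 0.23 at 72 (edgeR adjusted p 0.616 and 1). Acvr2a shares 446 bases, 7.84% of its exons, with Orc4 on the opposite strand.

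Old and young livers were compared at each time point to ask how age alters these genes. At 48, 2 of 10 genes were called (Inhbb and Inhbe, both higher in old), beside 11.2% of all genes, with 4.42% of all genes higher. Without old 48 replicate 2, Inhba and Inhbe were called higher at 48 (edgeR adjusted p 0.0422 and 0.0263) and Inhbb was not called (0.752), beside 5.01% of all genes. With all libraries, 0 were called at before, 72, 96, 120 and 240, beside 0.0595%, 0%, 0.171%, 0% and 0.0149% of all genes (2, 1, 0, 0 and 2 at an unadjusted p under 0.05). There DESeq2 called 0, and limma voom called 1 at before (Inhbc) and 0 at the other 4. Averaged over the 6 time points, 0 of 10 were called by edgeR, DESeq2 or limma voom, beside 5.98% of all genes (3 at an unadjusted p under 0.05 by edgeR). The test of whether the course over time differed between the ages called 0 of 10 by edgeR, beside 2.76% of all genes (2 at an unadjusted p under 0.05, Inhbc and Inhbe, with adjusted p 0.245 and 0.242). DESeq2 called 0 there and limma voom 1, Inhbc (adjusted p 0.0332).

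For each gene the 3 genes most alike in pattern were taken by Pearson correlation over the 12 group means of log2(CPM + 1). They are given as a description, since the 12 means share libraries and time course. Acvr2a was most like Cnpy2 (r = 0.97), Sos1 (0.95) and Snx13 (0.95). Inhbc was most like Crot (0.95), S1pr3 (0.94) and Cars (0.93), and Inhbe like Mlh3 (0.94), Snhg4 (0.93) and Itprip (0.89). For Inhbb they were Ncdn (0.95), Lrrfip1 (0.95) and Taf15 (0.94), and for Inhba Birc6 (0.83), Zfp335 (0.80) and 6820431F20Rik (0.79). Those of Tgfb1 were Pde4a (0.93), Dopey2 (0.93) and Sema4d (0.92), those of Tgfb2 Agpat1 (0.89), Igf2bp3 (0.84) and 4933412E12Rik (0.83), and those of Tgfb3 Slc16a3 (0.89), Medag (0.89) and Tagln (0.89). Fst was most like Gm15417 (0.93), 0610010K14Rik (0.89) and Rell1 (0.89), and Bambi like Fam96b (0.94), Lancl1 (0.87) and Nrbp1 (0.86). Without old 48 replicate 2 the value of Inhba with Zfp335 was 0.38 and that of Inhbe with Snhg4 0.62, whereas those of Acvr2a and Inhbc with their first genes were 0.94 and 0.97.

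The wider pathway was read from a list of 75 genes, of which 74 had a row and 64 were tested. At 48 against before, 13 of 64 were called in young livers (20.3%, against 21.9% of all genes), 1 higher and 12 lower, with a median log2 change of -0.17 against -0.01 over all genes. In old livers 14 were called at 48 (21.9%, against 24.1%), 7 in each direction, with a median of 0.11 against 0.01. Without replicate 2, 5 were called there (1 higher, 4 lower; 7.81%, against 16.8% of all genes). In young livers 15 were called at 72 (6 higher, 9 lower; 23.4%, against 17.4%) and 8 at 96 (5 higher, 3 lower; 12.5%, against 1.4%). In old livers 7 were called at 72 (1 higher, 6 lower; 10.9%, against 12.4%) and 4 at 96 (all lower; 6.25%, against 6.82%). Over all times 20 of 64 changed in young livers (31.2%, against 21.4%) and 12 in old livers (18.8%, against 20.5%). Averaged over time, 8 differed between the ages (4 higher and 4 lower in old; 12.5%, against 5.98%).

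The Smads, which carry the signal to the nucleus, were called in 1 direction at 48, lower. In young livers 4 of 8 were called (9.79% of all genes were lower), with a median change of -0.42, and in old livers 3 of 8 (12% of all genes were lower), with a median of -0.39. Without old 48 replicate 2, 2 of 8 were called in old livers, both lower, beside 16.8% of all genes (1036 of 13682 genes lower). In the same young libraries summed stellate cell markers (282 to 376 CPM, against 409 to 531 CPM before) and the sinusoidal endothelial markers given above were lower without overlap, and their part was not tested. Smad7, the inhibitory Smad that targets TGF-beta receptors, held 38.7, 59.2 and 59.3 CPM in old livers before and 24.2, 31.0 and 29.5 CPM at 48 (-0.89 ± 0.23, edgeR adjusted p 0.00638; -0.93 and 0.0167 without replicate 2, and -0.87 and 0.0830 in a fit of only the groups compared). Among receptors, Bmpr2, a type II receptor for bone morphogenetic proteins, fell in old livers at 72 by 0.61 ± 0.14 (edgeR adjusted p 0.00370; 0.0531 in a fit of only the groups compared and 0.0663 without the libraries that hold Y-linked transcripts).

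Of the genes for latency and activation, Ltbp4, which encodes a protein that binds latent TGF-beta in the matrix, fell in both ages. It held 45.4, 35.8 and 35.4 CPM in young livers before and 20.9, 14.5 and 12.3 CPM at 48 (-1.27 ± 0.25, edgeR adjusted p 0.000395). In old livers it held 44.8, 50.7 and 53.2 CPM before and 17.8, 14.2 and 24.5 CPM at 48 (-1.39 ± 0.25, adjusted p 0.000237; -1.20 and 0.00376 without replicate 2), and it was still lower there at 120 (-1.18 ± 0.25, adjusted p 0.00697; 0.0549 without old before replicate 3). The course over time differed between the ages for 3 of 64 listed genes tested, beside 2.76% of all genes. They were Thbs1, an activator of latent TGF-beta (edgeR adjusted p 0.0291), Atoh8 (0.0337) and Col1a1 (0.0484). Leaving out 1 library at a time gave 0 to 7 such genes. Thbs1 held 29.8, 118 and 3.87 CPM in young libraries at 96 and 19.8, 55.7 and 5.73 CPM in old ones at 48. Single libraries thus carried much of both of its peaks. The call of its course was lost with limma voom (adjusted p 0.315), with no filter on low counts (edgeR adjusted p 0.0589), without the libraries that hold Y-linked transcripts (0.227), and without young 96 replicate 2, old 48 replicate 2 or any library of young 48 or old 96 (0.0553 to 0.104).

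Among the ligands of the wider family, Gdf15, a stress-induced member, fell furthest in young livers. It held 35.4, 83.6 and 76.8 CPM before and 3.94, 3.19 and 2.41 CPM at 240 (-4.35 ± 0.64, edgeR adjusted p 0.000729) and was called lower at all 5 later times in young livers (that at 96 was lost in a fit of only the groups compared, edgeR adjusted p 0.0869). In old livers Gdf15 was called lower at 72, 96 and 120 (-1.86, -2.21 and -2.82; edgeR adjusted p 0.0221, 0.0163 and 0.00654). The old calls at 72 and 96 were each lost without old before replicate 3 and without replicate 2 or 3 of the time point, and that at 120 without old before replicate 3 (adjusted p 0.0551 to 0.121); that at 72 was also lost with no filter on low counts (0.0506). Among the antagonists, Fstl1 rose in young livers at 72 from 11.4, 13.2 and 8.96 CPM to 40.0, 63.7 and 18.6 CPM (1.86 ± 0.36, edgeR adjusted p 0.000896).

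Of 14 target genes tested, 3 (21.4%, against 17.4% of all genes) were called in young livers at 72, all higher (9.21% of all genes were higher): Col1a1 by 3.79 ± 0.70, Col1a2 by 2.90 ± 0.57 and Col3a1 by 2.63 ± 0.53 (edgeR adjusted p 0.000854, 0.00127 and 0.00161), which encode fibrillar collagens. In a fit of only the groups compared, the adjusted p was 0.0532 for Col1a1 and 0.0598 for Col3a1. Col1a1 held 233, 180.4 and 27.5 CPM there against 9.20 to 11.9 CPM before, and replicate 3 had the lowest value, as it did for Tgfb1 and Tgfb3. In old livers at 72 Col1a1 held 12.1, 22.0 and 16.8 CPM. Summed stellate cell markers ran from 330.4 to 399 CPM in the young libraries at 72 and from 409 to 531 CPM before, with 8 of 8 detected, whereas mesothelial markers were higher at 72 without overlap (22.7 to 27.3 CPM, against 3.33 to 5.97 CPM before). Cholangiocyte markers summed to 167, 324 and 60.1 CPM at 72 against 63.5 to 87.2 CPM before, and were lowest in replicate 3, as was Col1a1. Of the cholangiocyte markers Spp1 alone reached 261 CPM over the 36 libraries, and no other passed 47.5 CPM. The part of these cells in the collagen values was not tested. In old livers at 48, Fn1, Skil and Lrrc32 were highest in replicate 2, at 4215, 186 and 119 CPM. Fn1 and Skil were called higher there, by 0.84 and 0.88, and not without that library (0.52 and 0.63, edgeR adjusted p 0.111 and 0.109). Lrrc32 was called at 0.83 and had a change of 0.19 without it (adjusted p 0.629). Old against young at 48, Lrrc32 was called higher both with that library (1.52, edgeR adjusted p 0.00118) and without it (0.84, 0.0370). It was also higher in old livers on average over the 6 times (0.42, 0.0335). Id1, an early target of bone morphogenetic proteins, was higher in old livers on average over the 6 times (0.55 ± 0.12, edgeR adjusted p 0.00682), as was Id4 (0.84). The collagen genes Col1a1, Col3a1 and Col1a2 were lower in old livers in that comparison, by -0.93, -0.90 and -0.84 (edgeR adjusted p 0.0416, 0.0103 and 0.0264).

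**Figure D5:**
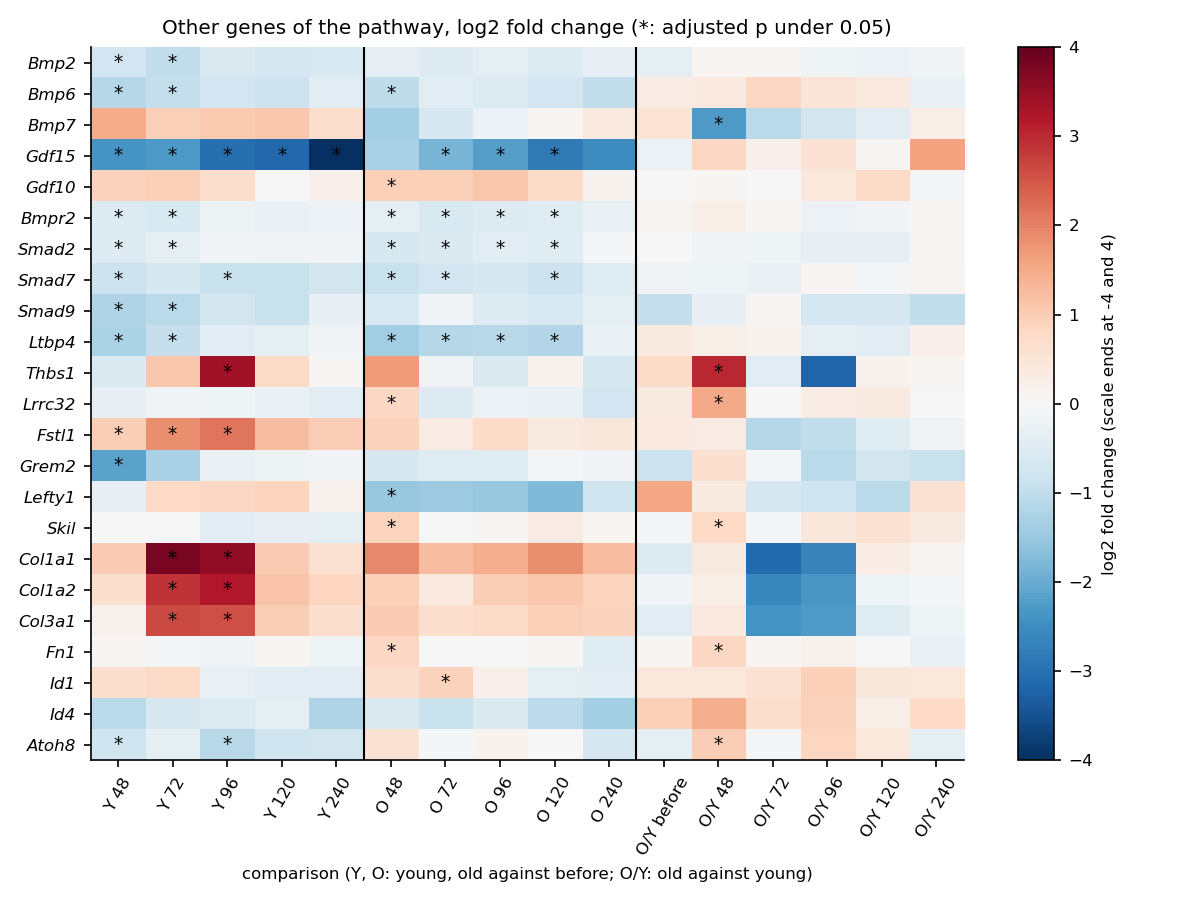
Log2 fold change of the wider pathway's named genes (rows) at the 5 later time points against before in young and old mice and in old against young mice at each of the 6 time points (columns), with colour from blue (lower) to red (higher) and an asterisk where the adjusted p was under 0.05. Ltbp4 and Gdf15 are blue in both ages, whereas Col1a1 is red at 72 and 96 in young mice (3.79 and 3.56).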

How the data were processed

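The 36 deposited tables hold raw counts per gene symbol, which the authors made, per the submitters' processing notes, with tools that include STAR 2.7.5b and featureCounts on GRCm38. RNA of frozen liver was depleted of ribosomal RNA, and ERCC spike-ins were added, per the labels' protocols; the tables hold 0 ERCC rows, so changes in total RNA per cell are not seen. The annotation, the use of strand and the filters are not given in the sources used here, so overlapping genes are uncertain. The libraries were grouped by labelled age and time point.

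Counts were tested in edgeR 4.0.16 (R 4.3.3) with TMM scaling and filterByExpr on the 12 groups (minimum count 10), in 1 quasi-likelihood fit of all 36 libraries with 1 mean per group. P-values were adjusted by Benjamini-Hochberg within each comparison over 13436 genes. CPM are depth-scaled counts on TMM-scaled totals. The tests were tried on simulated counts. Totals of 2328233 to 6034446 counts set a floor of 3 counts, and intervals and floors cover counting error only.

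The 10 genes were read in every comparison. From the pathway list, at most 4 genes higher and 4 lower per comparison were named: those called with the largest change and a mean CPM of at least 1. For tests of several contrasts, the 6 called genes with the smallest p were named. Among the genes so named, 1 is not reported here. The genes, lists and tests were chosen with earlier results of these data known. The contrasts of old minus young change, the fit with a term for Y-linked transcripts and the pathway counts without old 48 replicate 2 were added after seeing the data. Alternatives were other scalings and filters, DESeq2 1.42.0, limma 3.58.1 (voom), a replicate block, fits of fewer libraries and leaving out each library. Gene positions are from GENCODE vM21 and upstream sequences from RefSeq, both GRCm38.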

Additional observations from a re-analysis of the deposited data

Results flagged for a closer look

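The change of Inhbc at 96 against before went in opposite directions in the 2 ages. All 3 young libraries at 96 (80.6, 96.9 and 95.1 CPM) lay below the young libraries before (108, 140.0 and 114 CPM), whereas all 3 old libraries at 96 (133, 94.5 and 115 CPM) lay above the old libraries before (91.1, 58.8 and 58.9 CPM). The change in old minus that in young was 1.12 on the log2 scale (SE 0.38). By edgeR's quasi-likelihood test of this difference, in a contrast chosen after seeing the data, the p was 0.00603 and the adjusted p over 13436 genes 0.363, so it did not pass the threshold. The ages already differed before, with all old libraries below all young ones, and at 96 their values overlap.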

How the results depend on the processing

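For calls of the 10 genes, results were as follows. Young, later against before (2 calls): DESeq2 and a term for Y-linked transcripts (chosen after seeing the data) gave 4, and leaving out the libraries with those transcripts gave 1. Old, later against before (5): no filter on low counts gave 3 and only the groups compared 0. Old against young at each time point (2): 1 without Y-linked libraries and 0 with only the groups compared. Interaction (0): 1 with limma voom. Any change in young (1): 2 with limma voom, the replicate block or only the groups compared, and 0 without Y-linked libraries. Any change in old (3): 1 with only the groups compared.

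For the pathway list, any change in young (20) gave 8 without Y-linked libraries, and in old (12) 6 with only the groups compared. The mean age difference (8) gave 4 with limma voom and 4 without Y-linked libraries. The interaction (3) gave 1 with no filter, 7 with DESeq2 and 0 without Y-linked libraries. No result reversed.

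Leaving out 1 library at a time gave, in the order above, 2 to 5, 3 to 7, 1 to 2, 0 to 1, 1 to 2 and 2 to 4 calls of the 10 genes, and 0 to 1 for the mean age difference. For the pathway list the ranges were 14 to 25, 8 to 16, 5 to 8 and 0 to 7. Fits without Y-linked libraries have fewer libraries; other causes were not tested.

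Same-numbered libraries had a mean correlation of deviations of 0.0553 over 198 pairs (-0.378 to 0.578; 89 over 0.1), so the numbers were not taken as pairs. With the replicate block, calls of the 10 genes were 2 in young, 6 in old, 2 for old against young and 2 for any change in young.

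Total-count scaling moved the share of higher calls at 72 from 52.9% to 79.6% in young and from 53% to 72.3% in old, at 48 from 55.4% to 69.9% in young, at 96 from 47.3% to 69% in young and from 55.1% to 70.2% in old, and at 120 from 37.2% to 52.3% and from 47.7% to 61.2%. It moved the share at 240 in old from 9.52% to 22.2%. Depth limits Tgfb2, Tgfb3, Bambi and Fst, which had under 10 counts in some libraries.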

Other observations

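A further 6 genes were read after their values had been seen, because they are known targets or regulators of the integrated stress response, in which ATF4 and C/EBP proteins act on composite elements. In old livers at 48, Atf5, a transcription factor of that response, held 3621, 617 and 2151 CPM against 471, 642 and 297 CPM before. Ddit3 held 115, 7.29 and 30.7 CPM against 6.10, 12.5 and 6.16 CPM, and Trib3 111, 7.70 and 21.5 CPM against 7.28, 4.24 and 4.56 CPM. Fgf21, a hormone made by the liver, held 163, 21.9 and 40.3 CPM against 2.11, 2.46 and 1.60 CPM. By edgeR's quasi-likelihood test these 4 genes rose by 2.18, 2.61, 3.12 and 5.17 on the log2 scale (adjusted p 0.0027, 0.00169, 0.00272 and 0.00187), beside 24.1% of all genes called. Chac1 rose by 1.83 (edgeR adjusted p 0.0313) and Asns differed by 3.40 (adjusted p 0.104). Without old 48 replicate 2, in a fit chosen after seeing the data, the first 4 differed by 2.65, 3.16, 3.65 and 5.63 (edgeR adjusted p 0.000533, 3.94e-05, 0.000533 and 0.00178) and Chac1 by 1.39 (adjusted p 0.1496), beside 16.8% of all genes called.

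Inhbe held 655, 396 and 182 CPM in these libraries. Atf5, Ddit3, Trib3, Fgf21 and Asns were highest in replicate 1 and lowest in replicate 2, whereas Chac1 was highest in replicate 2 (16.4, 22.1 and 4.30 CPM). In old livers at 72, Fgf21 held 72.7, 0.936 and 0.957 CPM, and Inhbe held 262, 66.2 and 56.9 CPM, both highest in replicate 1. Atf5, Ddit3, Trib3 and Chac1 were also highest in replicate 1 there, whereas Asns was highest in replicate 3 (0.821, 0 and 6.51 CPM). In young 72 replicate 3, Inhbe held 243 CPM, while Fgf21 held 2.80 CPM and Atf5 484 CPM, its lowest value of that group. Ddit3, Trib3 and Asns were highest of their group in that library (21.6, 8.14 and 8.91 CPM). Fgf21 and Chac1 (2.04 CPM) lay between the other libraries of the group. These genes were chosen after their values were seen, and no relation between them and Inhbe was tested.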
